A study of Mus musculus with 10 samples.

Results

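The contractile program of smooth muscle was followed here in whole aortas of hyperlipidemic mice with and without the cytokine IL-17. Its 35 genes were chosen by gene symbol from a list of contractile, filament-linking, ion channel and regulatory genes of smooth muscle, and all 35 were measured among the 22180 genes tested. One group of 5 male mice was the ApoE knockout, and the other group of 5 was the ApoE/IL-17 double knockout, so both groups lacked ApoE, the apolipoprotein that clears lipoprotein remnants. The mice were of C57BL/6 background (C57B/L6 in the labels of the double knockout), were switched to high fat food at 8 weeks of age and kept on it for 3 weeks, and gave their aortas at 11 weeks. Total RNA of the aorta was hybridized to an Affymetrix Mouse Gene 2.0 ST array, and the deposited values are on a log2 scale.

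The deletions are not limited to a cell type, no wild-type aorta was analysed here, and the double knockout came from a cross of IL-17-/- with ApoE-/- mice. The ApoE knockout samples carry a protocol that names, instead of IL-17 deficient mice, a set of wild-type mice and mice deficient in ApoE and caspase-1, and the sources used here do not say whether both groups were raised or run together. Each group is labelled as 5 biological replicates. Myh11, Acta2 and Tagln were among the brightest genes in both groups, with the highest value of any gene being 13.80. A whole aorta also holds endothelium, fibroblasts, fat and blood cells. In such bulk samples, fewer cells of a type and less RNA per cell cannot be told apart.

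Smooth muscle shortens when calcium enters the cell, binds calmodulin and switches on myosin light chain kinase, which lets myosin pull on actin filaments. The filaments are anchored in dense bodies inside the cell and in attachment plaques at its surface, and a phosphatase that cyclic GMP signaling activates reverses the switch. Transcription of these genes depends on serum response factor and its smooth muscle cofactor myocardin, and in atherosclerosis smooth muscle cells are known to lower this program as they change state.

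Contractile genes were moderately higher in the double knockout aortas. Of the 35, 16 rose (45.7%, against 22.8% of all genes tested) and none fell (7.53% of all genes) by limma at an adjusted p of 0.05, by 1.21-fold to 1.51-fold, and 19 did not pass. The genes that rose included Myh11, the smooth muscle myosin heavy chain, the potassium channel genes Kcnma1 and Kcnmb1, the cyclic GMP-dependent kinase gene Prkg1 and the attachment and Z-line genes Vcl and Ldb3. Acta2 and Tagln, which encode smooth muscle actin and transgelin, did not pass, and neither did the regulators Srf and Myocd. At an unadjusted p of 0.05, 20 members passed, all of them higher. The share of all genes at that threshold was not taken, and 63.9% of all genes had a positive change.

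The difference between the members' share and that of all genes was not tested. The median log2 change was 0.28 over the members and 0.10 over all genes. In 10 members every double knockout value lay above every ApoE knockout value, which held for 15.6% of all genes. No member had the groups apart in the other direction, against 4.80% of all genes. Dim genes rose more often than bright ones in these arrays. Without the lowest 40% of genes by level, 16 of the 34 remaining members were higher, against 14.5% of genes, and without genes at the level of receptor genes foreign to the aorta the count was again 16, against 16.8%. At least 1.5-fold and called were 3 members, against 5.39% of all genes. In either direction 30.3% of all genes were called.

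The size of the rise depended on the scaling of the arrays. The median of all genes was 0.10 as deposited, -0.02 after quantile normalization and -0.11 after centring, in which the median of all probe sets of an array was subtracted from it. Relative to these, the members' median stood higher by 0.18, 0.31 and 0.18. Centring subtracts a single value from each array, so it leaves this gap unchanged by arithmetic. Quantile normalization left 16 members higher (8.94% of all genes), 15 of them also called in the deposited values, and none lower (11.2%). Centring left 3 higher, namely Prkg1, Kcnma1 and Ldb3 (7.52% of all genes), and 2 lower, Csrp1 and Pgm5 (25.4%), and turned 11 members that were not called from a positive to a negative change. Centring on the median of the genes tested left 12 higher (16.1% of all genes) and none lower (10.4%). All 16 called members kept a positive change under each of these scalings. Under both centrings this was fixed in advance, since they shifted every gene by the same amount, less than the smallest called change of 0.28.

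**Figure D1:**
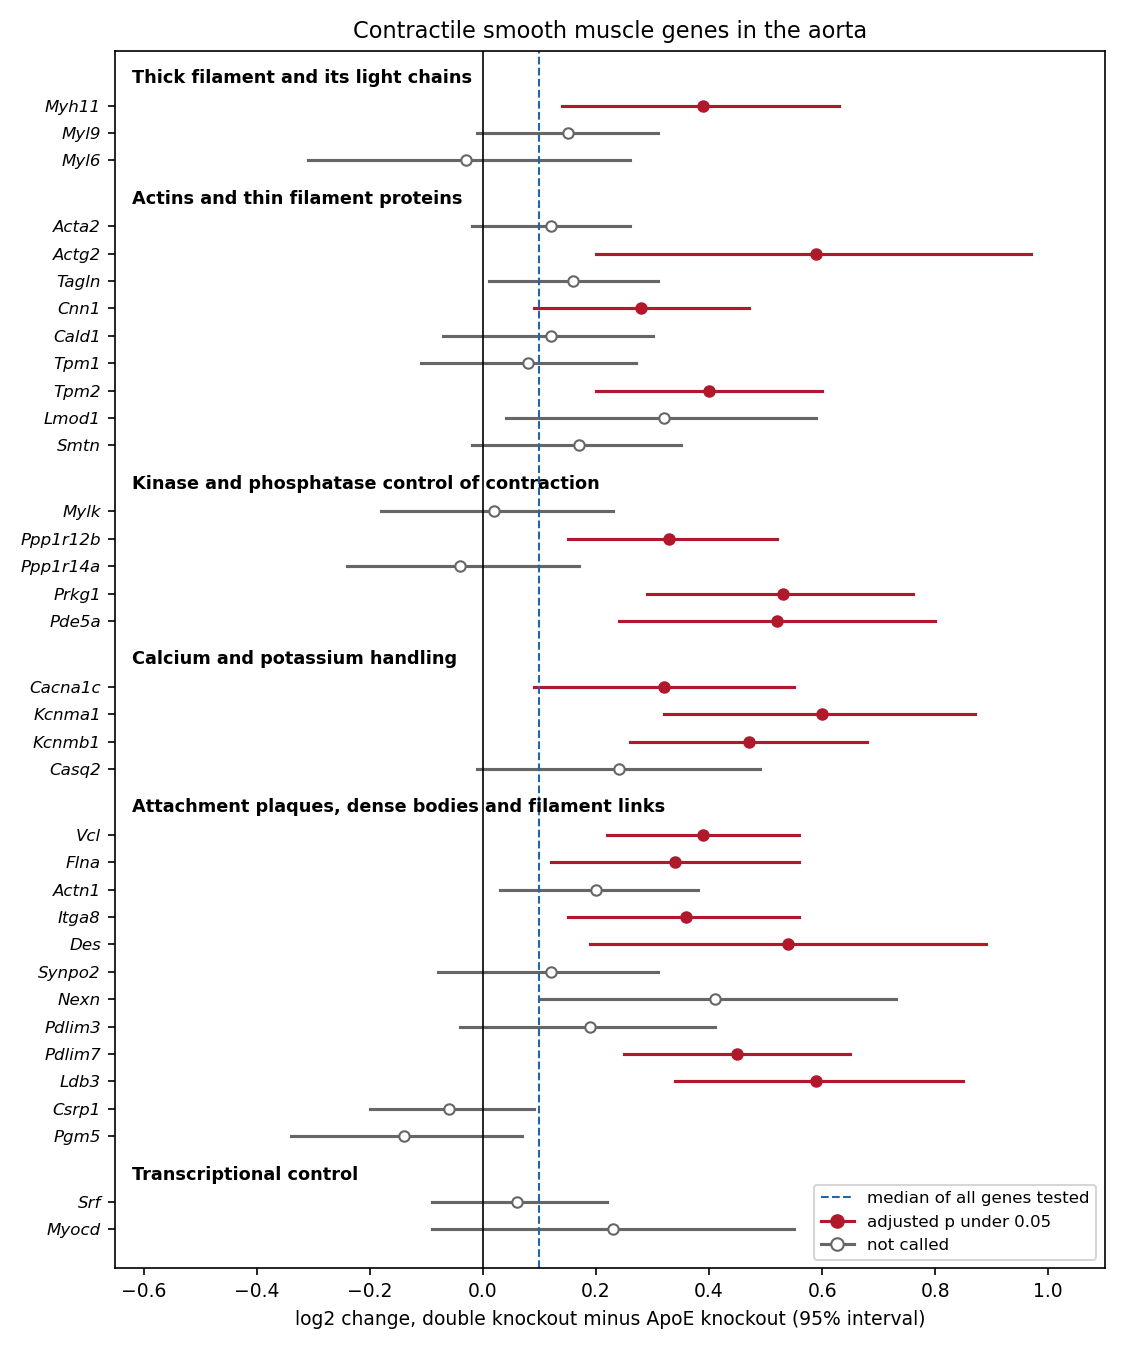
Log2 change of the 35 members, double knockout minus ApoE knockout, with its 95% interval on the x axis and the members by role on the y axis. Filled red points passed an adjusted p of 0.05, open grey points did not, and the dashed line is the median of all genes, 0.10; the 16 called members lie between 0.28 and 0.60.

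The regulators of the program are described first. Srf encodes serum response factor, the DNA-binding protein shared by most contractile genes. Its log2 values were 9.13, 9.02, 9.21, 9.12 and 9.12 in ApoE knockout replicates 1 to 5 and 9.36, 9.11, 9.20, 9.07 and 9.19 in double knockout replicates 1 to 5. The groups overlapped (log2 change 0.06, SE 0.07, limma adjusted p = 0.52), and the change turned to -0.14 after centring. Myocd encodes myocardin, the cofactor that directs Srf to smooth muscle genes. It read 9.82, 9.85, 9.99, 10.28 and 10.47 in ApoE knockout aortas and 10.16, 10.04, 10.31, 10.39 and 10.65 in double knockout aortas (log2 change 0.23, SE 0.15, limma adjusted p = 0.25). ApoE knockout replicates 1, 2 and 3 lay below all double knockout aortas, but replicates 4 and 5 lay within the double knockout range. Its change was 0.02 after centring.

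Srf binds the CArG box, a 10-base element whose pattern is its own reverse complement, so a single search covers both strands. Promoter windows from 250 bases before to 50 bases after a gene's start were taken from RefSeq (build GRCm38.p6) for the 30 members with a match by symbol. A full CArG box lay in the window of 5 of the 30 members (16.7%), namely Srf, Myl9, Myl6, Vcl and Ldb3, and of 488 of the 27025 genes in the promoter table (1.81%). Vcl and Ldb3 rose in the double knockout, while Srf, Myl9 and Myl6 did not pass. A match describes the sequence and is not a measured binding site, and these windows hold no distal elements. The sequences are those of a pair of called members and a pair that did not pass, each 5′ to 3′ on the gene's own strand with the CArG boxes in capitals. Vcl lies at chr14:20929148-20929447 (plus strand) with its box from 227 to 218 bases before the start, Ldb3 at chr14:34588632-34588931 (minus strand) with its box from 35 to 26 bases before, Myl9 at chr2:156775214-156775513 (plus strand) with its box from 161 to 152 bases before, and Srf at chr17:46556113-46556412 (minus strand) with boxes from 82 to 73 and from 62 to 53 bases before.
Vcl: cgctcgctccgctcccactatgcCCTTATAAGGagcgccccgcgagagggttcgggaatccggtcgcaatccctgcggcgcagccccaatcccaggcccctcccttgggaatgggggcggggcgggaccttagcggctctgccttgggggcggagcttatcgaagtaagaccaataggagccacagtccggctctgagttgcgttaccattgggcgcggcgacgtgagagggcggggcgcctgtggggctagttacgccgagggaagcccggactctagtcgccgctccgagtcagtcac
Ldb3: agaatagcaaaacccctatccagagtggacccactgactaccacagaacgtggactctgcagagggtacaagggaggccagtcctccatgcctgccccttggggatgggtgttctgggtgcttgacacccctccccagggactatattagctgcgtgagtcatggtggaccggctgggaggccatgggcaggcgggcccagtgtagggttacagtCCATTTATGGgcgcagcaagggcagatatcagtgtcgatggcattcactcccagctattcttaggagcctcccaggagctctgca
Myl9: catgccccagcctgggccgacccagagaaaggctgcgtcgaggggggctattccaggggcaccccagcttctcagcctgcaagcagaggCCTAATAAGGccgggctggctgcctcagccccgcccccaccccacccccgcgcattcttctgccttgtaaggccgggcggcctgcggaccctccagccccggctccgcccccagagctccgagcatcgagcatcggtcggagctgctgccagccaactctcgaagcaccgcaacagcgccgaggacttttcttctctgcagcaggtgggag
Srf: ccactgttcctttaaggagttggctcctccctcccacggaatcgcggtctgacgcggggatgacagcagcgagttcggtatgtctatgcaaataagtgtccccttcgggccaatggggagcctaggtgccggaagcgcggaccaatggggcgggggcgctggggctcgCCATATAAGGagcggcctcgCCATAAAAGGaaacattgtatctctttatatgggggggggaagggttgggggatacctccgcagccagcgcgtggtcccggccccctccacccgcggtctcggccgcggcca

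The thick filament is built of myosin heavy chains and their light chains. Myh11 encodes the heavy chain that defines smooth muscle. Its log2 values were 12.47, 11.97, 12.17, 12.16 and 12.60 in ApoE knockout aortas and 12.69, 12.60, 12.76, 12.58 and 12.67 in double knockout aortas. ApoE knockout replicates 1 to 4 lay below the double knockout range, replicate 2 farthest, and replicate 5 lay within it. Myh11 was 1.31-fold higher (log2 change 0.39, SE 0.11, limma adjusted p = 0.025). The call was lost without ApoE knockout replicate 2, 3 or 4 or double knockout replicate 3 (adjusted p = 0.053 to 0.060), after centring on all probe sets and after centring on the genes tested. Myl9, the regulatory light chain that the kinase phosphorylates, had means of 12.69 ± 0.13 in ApoE knockout aortas and 12.84 ± 0.04 in double knockout aortas (SD, n = 5) and did not pass (log2 change 0.15, SE 0.07, limma adjusted p = 0.14), except without ApoE knockout replicate 5 (adjusted p = 0.040). Myl6, the essential light chain, had means of 7.65 ± 0.27 in ApoE knockout aortas and 7.62 ± 0.16 in double knockout aortas (SD, n = 5) and did not pass (log2 change -0.03, SE 0.13, limma adjusted p = 0.89), with a sign that depended on which array was left out.

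The actins and the proteins along the thin filament came next. Acta2, the vascular smooth muscle actin, read 13.38, 13.30, 13.39, 13.39 and 13.55 in ApoE knockout aortas and 13.53, 13.57, 13.50, 13.48 and 13.54 in double knockout aortas. ApoE knockout replicate 5 lay within the double knockout range, while the other 4 lay below it, and the change did not pass (log2 change 0.12, SE 0.06, limma adjusted p = 0.17). Acta2 was called higher only after quantile normalization without dim genes, and its change turned to -0.08 after centring. Its values lay close to the highest of any gene on these arrays. Tagln, which encodes the actin-binding protein transgelin, read 12.67, 12.53, 12.64, 12.75 and 12.83 in ApoE knockout aortas and 12.85, 12.87, 12.77, 12.84 and 12.87 in double knockout aortas. It did not pass either (log2 change 0.16, SE 0.07, limma adjusted p = 0.11), with ApoE knockout replicate 5 inside the double knockout range and a change of -0.05 after centring. It was called higher when the variance prior followed the mean level and was made robust to outliers (adjusted p = 0.049).

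In this group 3 of 9 genes rose, against 22.8% of all genes. Actg2, the enteric smooth muscle actin, had log2 values of 10.15, 9.84, 10.44, 10.23 and 11.01 in ApoE knockout aortas and 11.01, 10.94, 10.82, 10.78 and 11.07 in double knockout aortas. It rose (log2 change 0.59, SE 0.18, limma adjusted p = 0.027), although ApoE knockout replicate 5 lay within the double knockout range. Actin genes have closely similar coding sequences. Whether their probe sets share signal was not tested, so the split between Acta2 and Actg2 remains uncertain. Cnn1 encodes calponin, which restrains actin-activated myosin. It read 12.44, 12.27, 12.53, 12.54 and 12.74 in ApoE knockout aortas and 12.82, 12.73, 12.72, 12.82 and 12.82 in double knockout aortas, 1.21-fold higher (log2 change 0.28, SE 0.09, limma adjusted p = 0.031). ApoE knockout replicate 5 alone lay within the double knockout range. Tpm2 encodes a tropomyosin, the rod that lies along actin. Its values were 9.16, 9.03, 9.28, 9.14 and 9.52 in ApoE knockout aortas and 9.63, 9.60, 9.69, 9.55 and 9.65 in double knockout aortas, with no overlap between the groups (log2 change 0.40, SE 0.09, limma adjusted p = 0.0079, 1.32-fold). The Tpm2 call held without each array in turn. Actg2 lost its call without ApoE knockout replicate 1, 2 or 4 or double knockout replicate 1 or 5 (adjusted p = 0.055 to 0.057), and Cnn1 without ApoE knockout replicate 1, 2, 3 or 4 or double knockout replicate 1, 4 or 5 (adjusted p = 0.050 to 0.065). After centring on all probe sets none of the 3 passed.

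The other 4 thin filament members did not pass. Lmod1, a leiomodin that nucleates actin filaments, came nearest, with means of 9.35 ± 0.28 in ApoE knockout aortas and 9.67 ± 0.13 in double knockout aortas (SD, n = 5 per group; log2 change 0.32, SE 0.13, limma adjusted p = 0.074), and it passed without ApoE knockout replicate 5 (adjusted p = 0.029). Smtn, which encodes smoothelin, had means of 11.06 ± 0.15 in ApoE knockout aortas and 11.23 ± 0.08 in double knockout aortas (SD, n = 5) at its brighter probe set (log2 change 0.17, SE 0.08, limma adjusted p = 0.15). A second, dimmer Smtn probe set rose from 5.87 ± 0.09 to 6.27 ± 0.15 (SD, n = 5 per group; log2 change 0.39, SE 0.08, limma adjusted p = 0.0059). Cald1, caldesmon, and Tpm1, a second tropomyosin, had log2 changes of 0.12 (95% interval -0.07 to 0.30) and 0.08 (95% interval -0.11 to 0.27).

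**Figure D2:**
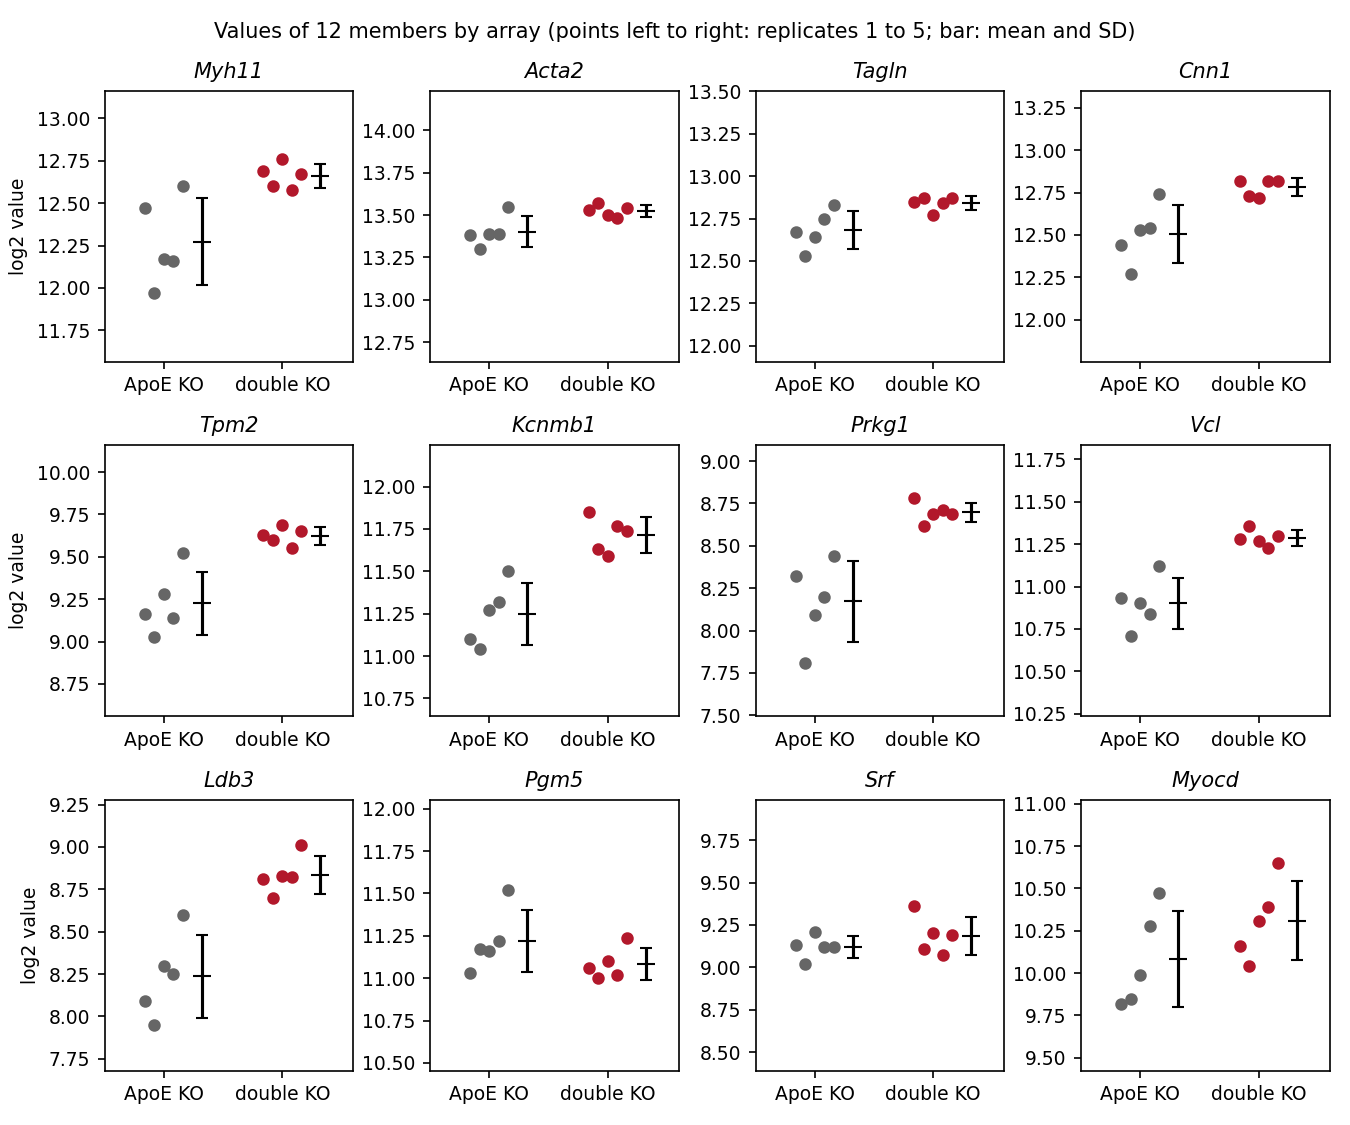
Log2 values of 12 members in each array on the y axis, ApoE knockout in grey and double knockout in red, replicates 1 to 5 from left to right within a group, with the mean and SD beside them; every panel spans the same range of log2 units. For Tpm2, Kcnmb1, Prkg1, Vcl and Ldb3 the groups do not overlap, whereas Srf, Myocd and Pgm5 overlap, and ApoE knockout replicate 5 is the highest of its group in 11 of the 12 panels, Srf being the exception.

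The enzymes that switch contraction on and off divided, with 3 of 5 higher, against 22.8% of all genes. Mylk encodes myosin light chain kinase, the switch itself, and its means were 9.10 ± 0.18 in ApoE knockout aortas and 9.13 ± 0.08 in double knockout aortas (SD, n = 5 per group; log2 change 0.02, SE 0.09, limma adjusted p = 0.86). Ppp1r14a encodes the phosphatase inhibitor CPI-17, and its means were 10.55 ± 0.20 in ApoE knockout aortas and 10.51 ± 0.06 in double knockout aortas (SD, n = 5 per group; log2 change -0.04, SE 0.09, limma adjusted p = 0.78). Neither passed, and the intervals bound a change in Mylk at -0.18 to 0.23 and in Ppp1r14a at -0.24 to 0.17 on the log2 scale of the deposited values. After centring the changes were -0.18 and -0.24, at the lower ends of these intervals.

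The other 3 members of this group, Prkg1, Pde5a and Ppp1r12b, rose. Prkg1 encodes the cyclic GMP-dependent protein kinase, which lowers calcium and activates the phosphatase. Its log2 values were 8.32, 7.81, 8.09, 8.20 and 8.44 in ApoE knockout aortas and 8.78, 8.62, 8.69, 8.71 and 8.69 in double knockout aortas. All double knockout aortas lay above all ApoE knockout aortas, and Prkg1 was 1.44-fold higher (log2 change 0.53, SE 0.11, limma adjusted p = 0.0048). Pde5a encodes the phosphodiesterase that breaks down cyclic GMP. It read 10.70, 10.24, 10.30, 10.42 and 10.76 in ApoE knockout aortas and 11.13, 10.64, 11.06, 11.07 and 11.12 in double knockout aortas, 1.44-fold higher (log2 change 0.52, SE 0.13, limma adjusted p = 0.012). Double knockout replicate 2 alone lay inside the ApoE knockout range. Ppp1r12b encodes a myosin-binding subunit of the phosphatase. Its values were 8.07, 7.73, 7.86, 7.92 and 8.10 in ApoE knockout aortas and 8.33, 8.12, 8.35, 8.27 and 8.27 in double knockout aortas, 1.26-fold higher and without overlap (log2 change 0.33, SE 0.08, limma adjusted p = 0.013). Each of these 3 calls held without each array in turn, and after centring on all probe sets only that of Prkg1 held.

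Members for calcium and potassium handling rose in 3 of 4 cases, against 22.8% of all genes. Kcnma1 encodes the pore of the large-conductance calcium-activated potassium channel, whose opening relaxes the muscle. Its log2 values were 9.02, 8.54, 8.82, 8.76 and 9.13 in ApoE knockout aortas and 9.62, 9.13, 9.48, 9.40 and 9.62 in double knockout aortas. The highest ApoE knockout value and the lowest double knockout value, both of 9.13 as rounded, nearly touched, and the gene was 1.51-fold higher (log2 change 0.60, SE 0.13, limma adjusted p = 0.0059), the largest change among the members. A second Kcnma1 probe set, with group means of 4.81 and 4.90, lay below 5.80 and did not pass (log2 change 0.09, SE 0.09, limma adjusted p = 0.49). Receptor genes for smell and taste (1432 olfactory, vomeronasal and taste genes), which are not known to act in the aorta, had mean levels under 5.80 in 95% of cases, and this value is called the receptor level from here on.

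Kcnmb1 encodes the smooth muscle beta subunit of the same channel, which raises its sensitivity to calcium. It read 11.10, 11.04, 11.27, 11.32 and 11.50 in ApoE knockout aortas and 11.85, 11.63, 11.59, 11.77 and 11.74 in double knockout aortas, without overlap and 1.39-fold higher (log2 change 0.47, SE 0.09, limma adjusted p = 0.0046). Cacna1c encodes the pore of the L-type calcium channel, the main route of calcium entry. Its values were 8.54, 8.21, 8.46, 8.47 and 8.61 in ApoE knockout aortas and 8.87, 8.43, 8.85, 8.83 and 8.89 in double knockout aortas, 1.25-fold higher (log2 change 0.32, SE 0.11, limma adjusted p = 0.041). Double knockout replicate 2 fell among the ApoE knockout aortas. The Cacna1c call was lost after quantile normalization (adjusted p = 0.054) and without any array but ApoE knockout replicate 5 or double knockout replicate 2 (adjusted p = 0.051 to 0.092). Casq2, a calcium-storing calsequestrin best known from cardiac muscle, did not pass (log2 change 0.24, SE 0.11, limma adjusted p = 0.13), with means of 5.43 ± 0.13 in ApoE knockout aortas and 5.67 ± 0.23 in double knockout aortas (SD, n = 5) below the receptor level and a call only without double knockout replicate 5 (adjusted p = 0.037).

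Genes of attachment plaques, dense bodies and filament links formed the largest group, of which 6 of 12 rose, against 22.8% of all genes. Vcl encodes vinculin, which ties actin to integrins at the plaque. Its log2 values were 10.93, 10.71, 10.90, 10.84 and 11.12 in ApoE knockout aortas and 11.28, 11.36, 11.27, 11.23 and 11.30 in double knockout aortas, without overlap (log2 change 0.39, SE 0.08, limma adjusted p = 0.0048, 1.31-fold). Itga8 encodes the integrin alpha 8 chain, a matrix receptor of vascular smooth muscle. It read 12.37, 11.99, 12.15, 12.17 and 12.50 in ApoE knockout aortas and 12.60, 12.50, 12.61, 12.58 and 12.66 in double knockout aortas, with both groups meeting near 12.50 without overlap (log2 change 0.36, SE 0.09, limma adjusted p = 0.016, 1.28-fold). Flna encodes filamin A, which crosslinks actin into networks. Its values were 12.55, 12.13, 12.30, 12.25 and 12.66 in ApoE knockout aortas and 12.68, 12.70, 12.81, 12.65 and 12.74 in double knockout aortas (log2 change 0.34, SE 0.10, limma adjusted p = 0.027, 1.26-fold). ApoE knockout replicate 5 lay within the double knockout range, and the call was lost without ApoE knockout replicate 2, 3 or 4 or double knockout replicate 3 or 5 (adjusted p = 0.050 to 0.062).

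Ldb3, Pdlim7 and Des were the other 3 genes of this group that rose. Ldb3 encodes the Z-line protein Cypher. Its log2 values were 8.09, 7.95, 8.30, 8.25 and 8.60 in ApoE knockout aortas and 8.81, 8.70, 8.83, 8.82 and 9.01 in double knockout aortas. The groups did not overlap, and Ldb3 had the smallest adjusted p of the members (log2 change 0.59, SE 0.11, limma adjusted p = 0.0038, 1.51-fold). Pdlim7 encodes the PDZ and LIM domain protein Enigma, also found on actin filaments. It read 8.60, 8.41, 8.63, 8.61 and 8.90 in ApoE knockout aortas and 9.08, 9.04, 9.15, 8.94 and 9.18 in double knockout aortas, again without overlap (log2 change 0.45, SE 0.09, limma adjusted p = 0.0048, 1.36-fold). Des encodes desmin, the intermediate filament of muscle. Its values were 9.29, 8.43, 9.03, 8.95 and 9.45 in ApoE knockout aortas and 9.47, 9.71, 9.53, 9.60 and 9.55 in double knockout aortas (log2 change 0.54, SE 0.16, limma adjusted p = 0.025, 1.45-fold). ApoE knockout replicate 2 stood lowest in Des, and the call was lost without ApoE knockout replicate 4 or double knockout replicate 4 (adjusted p = 0.053 and 0.050).

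The other 6 did not pass. Nexn, which encodes the actin-binding protein nexilin, missed the threshold narrowly, with means of 8.81 ± 0.30 in ApoE knockout aortas and 9.23 ± 0.21 in double knockout aortas (SD, n = 5 per group; log2 change 0.41, SE 0.14, limma adjusted p = 0.050), and it was called after quantile normalization and without ApoE knockout replicate 5 or double knockout replicate 1 (adjusted p = 0.016 and 0.029). Actn1, an alpha-actinin of dense bodies, had means of 11.75 ± 0.15 in ApoE knockout aortas and 11.96 ± 0.05 in double knockout aortas (SD, n = 5 per group; log2 change 0.20, SE 0.08, limma adjusted p = 0.077) and was called without ApoE knockout replicate 5 (adjusted p = 0.028). Pdlim3, an actinin-binding LIM protein, and Synpo2, the actin-bundling myopodin, had log2 changes of 0.19 (SE 0.10) and 0.12 (SE 0.09). Csrp1, a LIM protein of actin filaments, and Pgm5, the attachment plaque protein aciculin, had negative log2 changes of -0.06 (SE 0.07) and -0.14 (SE 0.09). Pgm5 ranged from 11.03 to 11.52 in ApoE knockout aortas and from 11.00 to 11.24 in double knockout aortas.

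Of 15 markers of cardiac muscle, 7 rose, none fell and 8 did not pass, against 22.8% of all genes higher, and their median log2 change was 0.50. One of the 7, Mybpc3, lay below the receptor level in both groups. Among them Ryr2, the calcium release channel, rose 1.78-fold and Pln, which encodes the calcium pump inhibitor phospholamban, 1.83-fold (limma adjusted p = 0.0023 and 0.0031). Their log2 summed level, the log2 of the sum of linear values over the list, ranged from 10.67 to 11.02 in ApoE knockout aortas and from 11.21 to 11.65 in double knockout aortas. Of the defining genes, Myh6, the cardiac myosin heavy chain, had an ApoE knockout mean of 5.36, below the receptor level, and a double knockout mean of 5.86, and did not pass (log2 change 0.50, SE 0.26, limma adjusted p = 0.16). Double knockout replicate 2 read 6.93 in Myh6, where the other double knockout aortas ranged from 5.32 to 5.85. That array also had the highest summed level, 11.65, where the other double knockout aortas ranged from 11.21 to 11.41. Actc1, the cardiac actin, rose from 5.70 to 6.49 (limma adjusted p = 0.027), but not after quantile normalization (adjusted p = 0.10), when 4 of the 15 were higher, against 8.94% of all genes. In all, 4 of the 15 lay below the receptor level in both groups. Des, Ldb3, Nexn and Casq2 are genes of cardiac muscle as well, and the part of cardiac tissue in their values was not tested. Of the skeletal muscle markers, 3 of 15 rose, against 22.8% of all genes. Tnnc2 rose 1.62-fold, while Myoz1 was called higher with both group means, 5.06 and 5.50, below the receptor level. The summed level of the skeletal muscle markers was 10.37, 10.92, 10.39, 10.34 and 10.42 in ApoE knockout replicates 1 to 5. It ranged from 10.47 to 10.91 in double knockout aortas, so replicate 2 alone of the ApoE knockout lay above the lowest of these. After quantile normalization 1 of the 15 was higher.

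Within the ApoE knockout, the same arrays were lowest and highest for most members. Replicate 2 was the lowest of its group for 29 of the 35 members and replicate 5 the highest for 31, where replicate 2 was lowest for 22.0% and replicate 5 highest for 25.7% of all genes. Among the 16 called members these counts were 16 and 16. Within the double knockout no array was lowest for more than 13 or highest for more than 10 of the 35 members. The mean log2 value over the members was 10.26, 10.04, 10.25, 10.24 and 10.50 in ApoE knockout replicates 1 to 5 and 10.54, 10.48, 10.55, 10.49 and 10.57 in double knockout replicates 1 to 5. ApoE knockout replicate 5 thus stood inside the double knockout range, and it did so for 6 of the 16 called members taken singly.

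The spread was wider in the ApoE knockout. The SD over 5 aortas was larger there than in the double knockout for 32 of the 35 members, against 44.7% of all genes. The median SD of the members was 0.18 in ApoE knockout aortas and 0.09 in double knockout aortas, where all genes had 0.15 and 0.16. The 3 exceptions were Cacna1c, Casq2 and Srf.

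**Figure D3:**
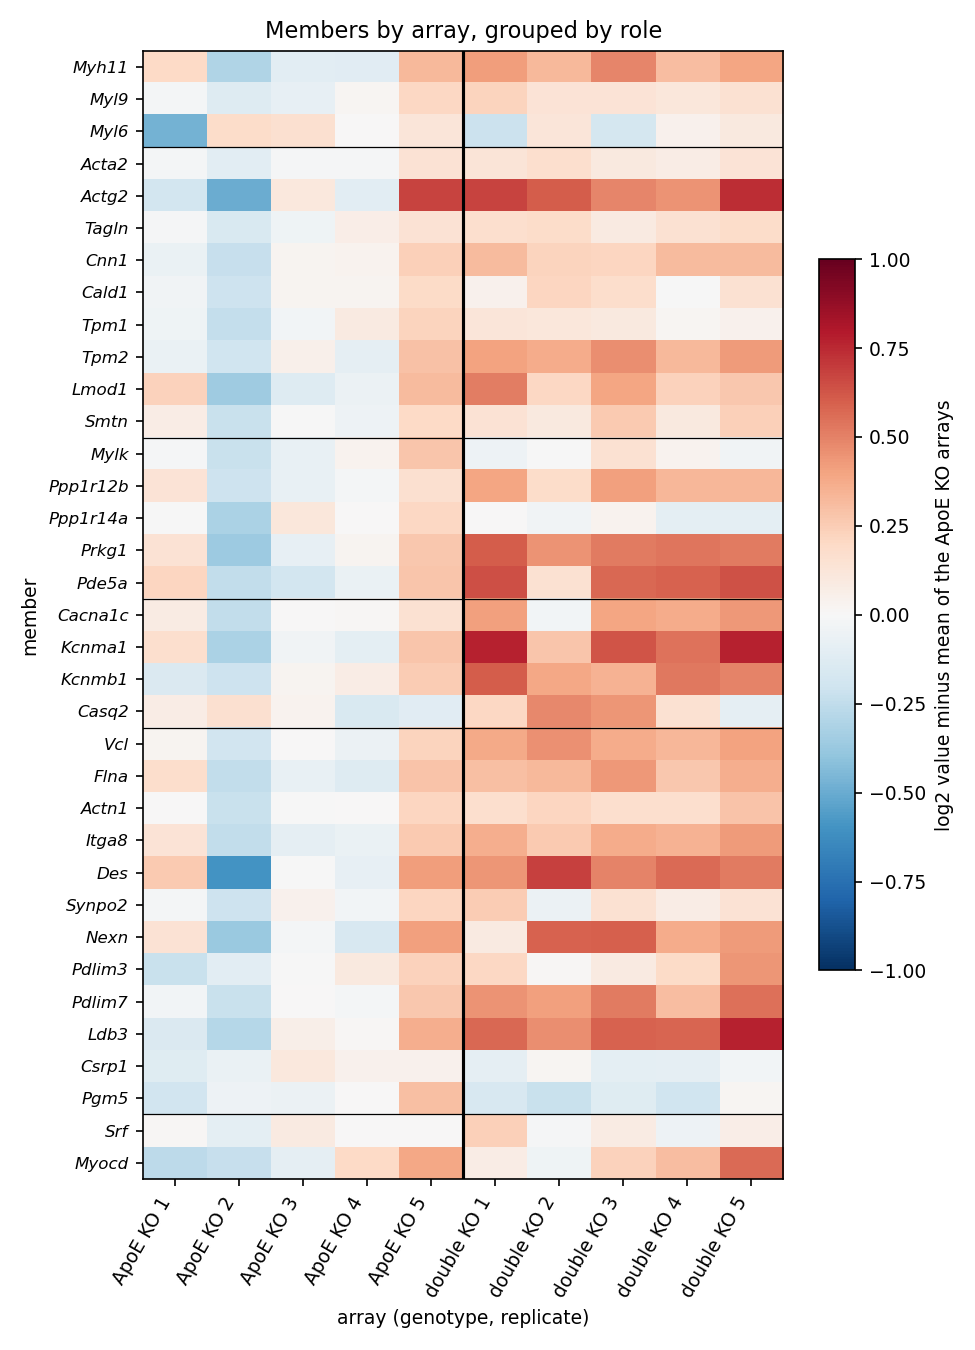
Each member's log2 value minus its mean over the ApoE knockout arrays (colour scale), with members grouped by role on the y axis and the 10 arrays on the x axis. ApoE knockout replicate 2 is the bluest column, lowest of its group in 29 members, and ApoE knockout replicate 5 the reddest of that group, highest in 31, while the double knockout columns are red in most rows.

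Leaving out arrays changed how many members passed. The count of members called higher was 13, 11, 12, 10 and 20 without ApoE knockout replicates 1 to 5 in turn, and 14, 16, 13, 13 and 13 without double knockout replicates 1 to 5. Without ApoE knockout replicate 4, the 10 called members stood against 19.3% of all genes. That share was not taken in the other fits, so their counts cannot be set against all genes. The median log2 change over all genes was 0.09 to 0.10 in every fit. No member fell in any of these fits. Of the 16 called members, 10 kept the call without each array in turn, namely Tpm2, Ppp1r12b, Prkg1, Pde5a, Kcnma1, Kcnmb1, Vcl, Itga8, Pdlim7 and Ldb3.

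Markers of other cell types moved beside the program. Of all genes tested, 7.53% fell. Of the T cell markers, 7 of 11 fell and none rose (median log2 change -1.20), with Ccr7 2.29-fold and Cd3g 4.60-fold lower, and none lay below the receptor level in both groups. Their log2 summed level was 10.76, 12.45, 12.04, 11.81 and 10.21 in ApoE knockout replicates 1 to 5 and ranged from 9.66 to 10.81 in the double knockout. ApoE knockout replicate 2 had the highest T cell level and the lowest mean of the contractile members in its group. Replicate 5 had the lowest T cell level and the highest mean. Replicates 1 and 3, with T cell levels of 10.76 and 12.04, had nearly the same mean, 10.26 and 10.25. Within the double knockout, replicate 1 had the highest T cell level (10.81) and replicate 4 the lowest (9.66), with means of 10.54 and 10.49. Of the red cell markers, 5 of 8 fell, with Slc25a37 7.68-fold and Car2 10.1-fold lower, and their summed level ranged from 13.24 to 13.78 in ApoE knockout aortas and from 10.23 to 11.00 in double knockout aortas. In ApoE knockout replicates 2 and 5 it was 13.78 and 13.63. Of the B cell markers, 7 of 11 fell, with Cd79b 3.37-fold and Cd79a 2.64-fold lower (summed level 10.41 to 11.11 and 9.48 to 9.87), and 1 lay below the receptor level in both groups. The part of these cells in the higher contractile genes was not tested.

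Few fat, macrophage and endothelial markers passed in the values as deposited, where 22.8% of all genes rose and 7.53% fell. Positive changes were found in 1 of 14 endothelial, 2 of 12 macrophage, 1 of 9 brown adipocyte and 1 of 9 white adipocyte markers. Of all genes, 63.9% had a positive change. The median log2 changes of these lists were -0.26, -0.29, -0.41 and -0.52 in that order, against 0.10 over all genes. None of 9 white adipocyte markers passed by limma (1 with an unadjusted p under 0.05), with Lep and Retn at log2 changes of -0.98 (SE 0.39) and -0.57 (SE 0.28), and of 9 brown adipocyte markers Dio2 alone rose (1.54-fold), while Elovl3 had a log2 change of -1.32 (SE 0.69). The summed level of the brown adipocyte markers ranged from 12.51 to 14.85 in the ApoE knockout, lowest in replicate 5 and highest in replicate 1, and from 12.97 to 14.17 in the double knockout. None of 12 macrophage markers passed by limma (1 with an unadjusted p under 0.05), with Cd14 and Csf1r at -0.52 (SE 0.21) and -0.35 (SE 0.18). Of 14 endothelial markers Tek and Pecam1 fell, 1.38-fold and 1.21-fold, and none rose. After centring on all probe sets 9 of the endothelial and 7 of the macrophage markers were lower, against 25.4% of all genes.

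**Figure D4:**
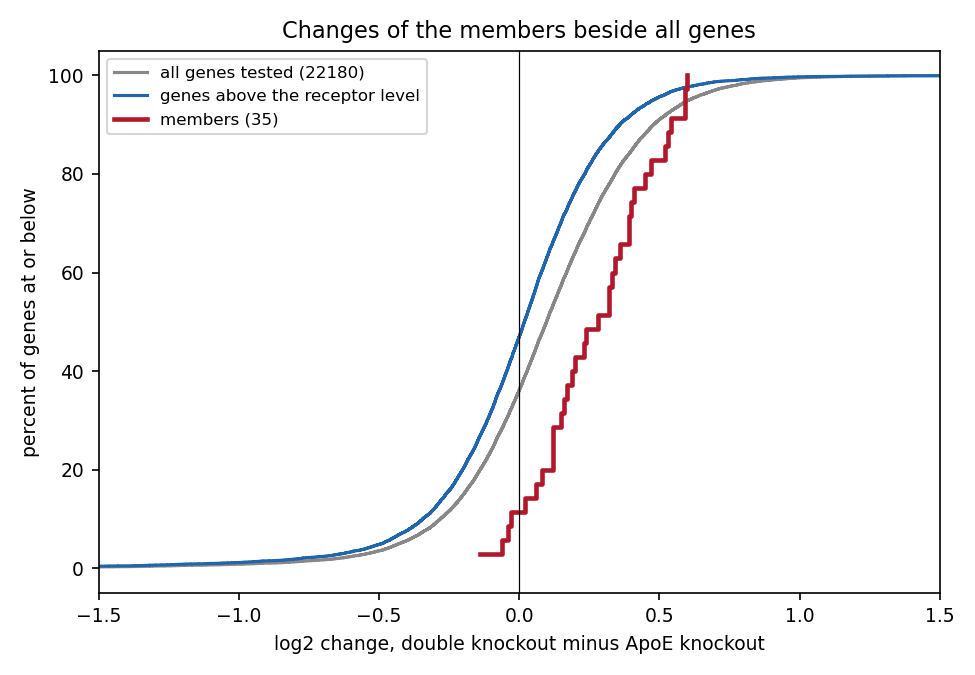
Cumulative share of genes, in percent on the y axis, by log2 change on the x axis (double knockout minus ApoE knockout), for the 35 members, all 22180 genes tested and the genes above the receptor level. The curve of the members lies to the right of both others up to a log2 change of about 0.60, with a median of 0.28 against 0.10 for all genes.

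Other genes of the smooth muscle pathways were read from lists that do not include the members. Of all genes, 22.8% rose and 7.53% fell as deposited, and 7.52% rose and 25.4% fell after centring on all probe sets. In the cyclic nucleotide list 7 of 11 rose and 1, Prkaca, fell (median log2 change 0.34, against 0.10 over all genes). Gucy1b1, the beta subunit of the nitric oxide receptor that makes cyclic GMP, rose 1.71-fold, from 10.03 ± 0.30 to 10.81 ± 0.10 (SD, n = 5 per group; log2 change 0.77, SE 0.13, limma adjusted p = 0.0017). Pde1a, a calcium-stimulated phosphodiesterase, rose 1.35-fold and Npr1, the receptor of atrial natriuretic peptide, 1.29-fold, each without overlap between the groups. Pde4d rose from 5.72, a value that hardly differed among the 5 ApoE knockout arrays, to 6.08 ± 0.26, which did not pass after quantile normalization (adjusted p = 0.30). Prkg1 and Pde5a, described above, act in the same pathway. After centring on all probe sets 1 of the 11 was higher and 2 were lower.

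In the calcium list 5 of 16 rose and 2 fell (median 0.17). Besides Ryr2 and Pln, given above, Slc8a1, the sodium-calcium exchanger, rose 1.28-fold, and Trpc6, a receptor-operated cation channel, was 1.89-fold lower at a double knockout mean of 5.15, below the receptor level.

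Among receptors for vasoconstrictors and vasodilators 2 of 12 rose and none fell (median 0.01). Htr2a, the serotonin 2A receptor, was 1.96-fold higher, from 8.39 ± 0.26 to 9.36 ± 0.25 (SD, n = 5 per group; log2 change 0.97, SE 0.15, limma adjusted p = 0.0011), without overlap. P2rx1, an ATP-gated cation channel, was 1.26-fold higher, and its adjusted p was 0.050 after quantile normalization. In the potassium channel list 2 of 10 rose, Kcnab1 (1.43-fold) and Kcnq5 (1.32-fold), and 2 fell, Kcnn4 (1.38-fold) and Kcnj2 (1.57-fold), with a median of 0.09. The Kcnq5 call was lost after quantile normalization (adjusted p = 0.16).

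Structural genes of smooth muscle outside the members rose in 16 of 50 cases and fell in 3 (median 0.15). The 4 with the smallest p were Sorbs2, an adaptor of actin and focal adhesions (1.71-fold, adjusted p = 0.00012), Dmd, which encodes dystrophin (1.91-fold, adjusted p = 4e-04), Sspn, sarcospan of the dystrophin complex (log2 change 0.58, adjusted p = 0.00069), and Lpp, a LIM protein of focal adhesions (log2 change 0.59, adjusted p = 0.0013). In each of these 4 the groups did not overlap. After centring on all probe sets, 8 of the 50 were higher and 7 lower.

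Among Srf cofactors and other regulators of the program, 1 of 19 rose and 1 fell (median -0.06). Notch3, a receptor that maintains arterial smooth muscle, rose 1.28-fold without overlap (adjusted p = 0.0096), and Foxo4, a forkhead factor that can bind myocardin, fell 1.22-fold (adjusted p = 0.037). Neither of the myocardin-related cofactor genes Mrtfa and Mrtfb passed. After centring on all probe sets none of the 19 was higher and 8 were lower.

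Genes linked to a dedifferentiated state of smooth muscle rose in 6 of 18 cases, against 22.8% of all genes, and none fell, against 7.53% (median 0.25). Tnc, which encodes the matrix protein tenascin C, was 1.89-fold higher, from 8.56 ± 0.25 to 9.48 ± 0.16 (SD, n = 5 per group; log2 change 0.92, SE 0.12, limma adjusted p = 0.00057). Lum, the collagen-binding proteoglycan lumican, and Mgp, matrix Gla protein, were 1.36-fold and 1.23-fold higher, and S100a4, a calcium-binding protein of motile cells, 1.62-fold. Several of these genes are also expressed by fibroblasts, of whose 12 markers 4 rose, Lum and Mfap5 first. After quantile normalization 5 of the 18 were higher and 1 lower, against 8.94% and 11.2% of all genes.

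**Figure D5:**
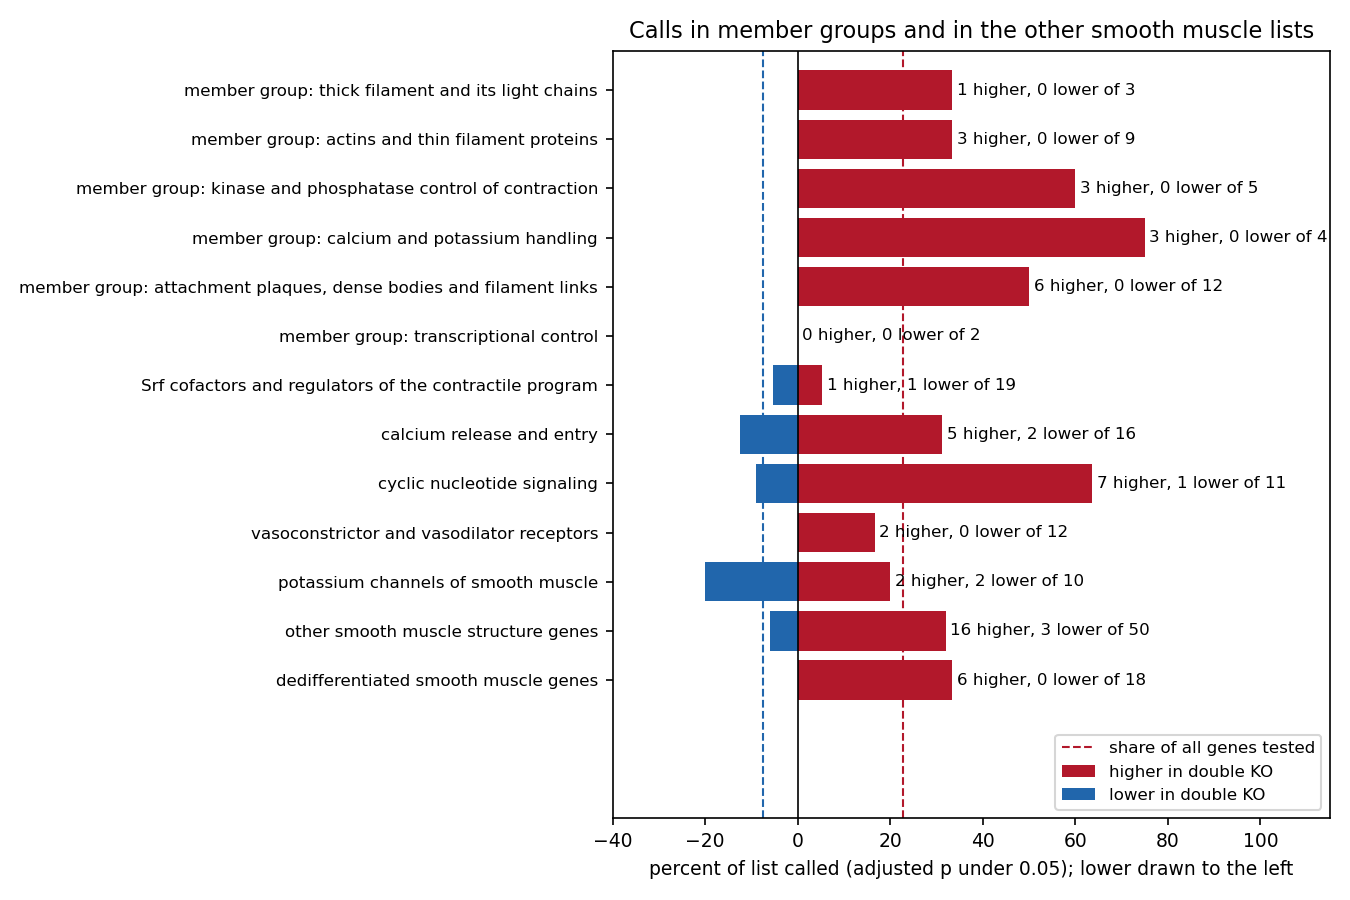
Percent of each list called higher (red, to the right) or lower (blue, to the left) in the double knockout on the x axis, with member groups and the other smooth muscle lists described here on the y axis and counts beside the bars. Dashed lines give the shares of all genes tested, 22.8% higher and 7.53% lower; the member groups for calcium and potassium handling (3 of 4), for kinase and phosphatase control (3 of 5) and the cyclic nucleotide list (7 of 11) lie farthest to the right.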

How the data were processed

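Affymetrix Mouse Gene 2.0 ST arrays of 10 aortas were read from the deposited value table, which per its values holds log2 levels of 41345 probe sets; how the authors normalized them is not stated in the sources used here, and limma is named, without a role, in the submitters' processing notes. Probe sets with 1 gene symbol (23521; 1814 had several and 16010 none) gave 22180 genes, each at its brightest probe set. Genotypes were compared with limma 3.58.1 in R 4.3.3 (lmFit and eBayes, two-sided, Benjamini-Hochberg over all genes, threshold 0.05), after the fit was tested on simulated data. The members and all lists were chosen with earlier results of these data known, so no list has a test of its own; 1 pathway list is not reported here. Values in every array are given for called members and for Myh11, Acta2, Tagln, Cnn1, Myocd and Srf; of each pathway list up to 4 called genes with the smallest p are named, and of each marker list 2. Prkaca, Mrtfa, Mrtfb, Myh6, Actc1, Mybpc3 and Higd1b were named after their values were seen. Alternatives covered scaling, dim genes, probe set rules, variance prior, array weights, the replicate number and each array left out. Figures used matplotlib 3.10.9.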

Additional observations from a re-analysis of the deposited data

Results flagged for a closer look

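In 70 groups of 5 values (35 members in each genotype), 3 values stood far from the other 4 of their group by Dixon's criterion, where chance flags about 1 in 20 groups. Myl6 read 7.17 in ApoE knockout replicate 1, against 7.65 to 7.83 in the other 4. Pde5a read 10.64 in double knockout replicate 2, against 11.06 to 11.13. Cacna1c read 8.43 in double knockout replicate 2, against 8.83 to 8.89. The Pde5a call held without double knockout replicate 2, and so did that of Cacna1c.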

How the results depend on the processing

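The 16 called members kept a positive change under each scaling run, which centring could not have altered, while the number of calls depended on the setting. Of the 16 members called higher, 3 were called after centring each array on its median over all probe sets, 7 at an adjusted p of 0.01 and 3 at an adjusted p of 0.05 with at least 1.5-fold. Of all genes, 7.52% rose after this centring and 5.39% by at least 1.5-fold. The share at an adjusted p of 0.01 was not taken. Leaving out each array in turn gave 10 to 20 members higher, none lower and a median of 0.23 to 0.34. Centring gave 2 members lower and a median of 0.07. It reversed members that were not called: Myl9 to -0.05, Acta2 to -0.08, Tagln to -0.05, Cald1 to -0.09, Tpm1 to -0.13, Smtn to -0.04, Mylk to -0.18, Actn1 to -0.00, Synpo2 to -0.09, Pdlim3 to -0.02 and Srf to -0.14. Centring on the genes tested, chosen after seeing the data, left 12 higher against 16.1% of all genes, and turned Mylk to -0.03. Leaving out 1 array moved Myl6 to between -0.14 and 0.02, Mylk to between -0.03 and 0.09 and Ppp1r14a to between -0.12 and 0.01. The other settings (filters on dim genes, probe set rules, variance prior and array weights) gave 16 to 19 members higher and none lower. Under the filters on dim genes, 11.3% to 16.8% of the genes kept were higher. For the rest of these settings that share was not taken.

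With the replicate number as a block, 17 members were higher, Myocd being added, and the share of all genes was not taken. Same-numbered arrays correlated between -0.17 and 0.37 in their deviations from the group means, with 3 of 5 over 0.1 and 2 of 5 correlating best with their own number. So few correlations cannot tell whether same-numbered arrays share more than a number.

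The arrays give no counts, and precision rests on 5 aortas a group. Genes near the receptor level of 5.80, Casq2 among the members, read close to genes foreign to the aorta, and their changes are to be read with caution. Mybpc3 and Myoz1 were called there in the deposited values, but neither passed after quantile normalization (limma adjusted p = 0.16 and 0.14). Litter, batch, scan date and the normalization applied before deposit are unstated in the sources used here, so any of these that differed between the genotypes cannot be told apart from IL-17. Array-wide levels did differ by genotype. Array medians were 5.76 to 5.80 (ApoE knockout) against 5.95 to 6.03 (double knockout), without overlap. Lower quartiles, 4.49 to 4.53 against 4.72 to 4.83, and receptor gene medians, 3.52 to 3.72 against 3.74 to 4.21, were also apart. Upper quartiles overlapped (7.55 to 7.62 against 7.59 to 7.66). The cause of this offset was not tested. The cellular makeup of each aorta was read from marker genes alone.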

Other observations

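Pericyte genes, which mark the contractile cells around small vessels, were read from a list of 10. All 10 had a positive log2 change, against 63.9% of all genes, and 3 rose and none fell, against 22.8% of all genes higher, with a median of 0.23. Higd1b lay below the receptor level in both groups. Ndufa4l2 and Notch3 had the smallest p among them, and 6 of the 10 were higher after quantile normalization, against 8.94% of all genes. Their log2 summed level ranged from 13.12 to 13.30 in ApoE knockout aortas and from 13.41 to 13.57 in double knockout aortas, without overlap. After centring on all probe sets none of the 10 passed in either direction.

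Fibroblast and Schwann cell genes divided. Of 12 fibroblast markers 4 rose, against 22.8% of all genes, and none fell (median 0.13), Lum and Mfap5 by 1.36-fold and 1.26-fold, while the summed level overlapped, from 15.10 to 15.21 in ApoE knockout aortas and from 15.07 to 15.33 in double knockout aortas. Of 7 Schwann cell markers 1 rose and 3 fell, against 22.8% and 7.53% of all genes. Pmp22 and Cnp had the smallest p, and the median was 0.13 as deposited and -0.15 after quantile normalization.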
